A study of Mus musculus with 8 samples.

Results

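Arc, Npas4, Nptx2, Pcsk1, Inhba and Ptgs2 are genes that neurons switch on when they fire and whose products act at or near synapses. These 6 genes were taken by name from the 34980 genes of the deposited count tables, and each was represented by its transcript with the highest total count over the 6 libraries. The study sequenced total RNA from manually dissected layer IV of the visual cortex of B6D2 mice, in duplicate, with 4 mice pooled per condition. The groups were mice heterozygous for Otx2 at postnatal day 30 (het P30), wild-type mice at postnatal day 100 (WT P100) and wild-type mice at postnatal day 30 (WT P30), with 2 libraries each. The sample labels write the heterozygous genotype as Otx2 +/- and the series description as Otx2 (+/GFP). Heterozygous libraries from P100 were not analysed here. The sources do not say that the 2 libraries of a group came from separate pools of mice, so the p-values below measure the spread between these libraries, which may be technical.

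Synaptic activity lets calcium into a neuron and starts transcription in waves. The first wave needs no new protein and includes Arc and the transcription factor gene Npas4, while genes such as Nptx2, Pcsk1 and Inhba follow later and encode secreted products or the enzymes that make them. Ptgs2 sits between these classes, since it is induced quickly in many cells but its enzyme makes a diffusible lipid signal. In the visual cortex such genes are known to respond to light and to take part in the plasticity of the juvenile critical period. Otx2 is a homeoprotein that passes between cells, and in the cortex it is known for its uptake by parvalbumin interneurons, where it regulates the critical period.

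The depth was 14842212 and 15308781 gene counts in the het P30 libraries, 13733970 and 11168076 in the WT P100 libraries, and 11016841 and 14870365 in the WT P30 libraries. Otx2 itself had 0 counts in 5 libraries and 73 counts in het P30 replicate 2, so its transcript could not check the genotype labels. That library also held 8966 counts of Ttr, the transthyretin gene of the choroid plexus, against 0 or 1 in every other library. The layer 4 marker Rorb stood at 500 to 562 CPM (counts scaled to a common library total), and the summed CPM of 8 layer 4 markers was 1701 to 1751 in het P30, 1754 to 1822 in WT P100 and 1904 to 1985 in WT P30 libraries. In het P30 against WT P30 all 8 layer 4 markers had log2 fold changes below 0 (median -0.40), and 3 were called lower. Over all genes tested, edgeR called 2.32% lower and 0.903% higher in this comparison. In WT P100 against WT P30 these shares were 4.54% and 3%. The summed CPM of 6 layer 5 markers was 269.5 to 296.4 in het P30, 203.7 to 272.2 in WT P100 and 209.7 to 222.7 in WT P30 libraries, with 2 called higher in het P30 against WT P30, and that of 6 layer 6 markers was 57.7 to 59.2, 47.8 to 51.3 and 48.2 to 54.5 in the same groups, with none of the 5 tested called by edgeR, DESeq2 or limma-voom and 1 at an unadjusted edgeR p under 0.05. The summed CPM of 8 myelin genes was 2255 to 2317 in het P30, 1538 to 1804 in WT P100 and 3022 to 3229 in WT P30 libraries, and all 8 were called lower in het P30 and in WT P100 than in WT P30. The summed CPM of 5 neuronal markers was 3917 to 4030 in het P30 and 4502 to 4798 in WT P100 libraries. In WT P30 libraries it was 3722 to 4294. None of the 5 was called in het P30 against WT P30, where 2 had an unadjusted edgeR p under 0.05. In WT P100 against WT P30, 1 was called lower, Slc17a7. The part of these neuronal, layer and myelin genes in the results below was not tested. Both het libraries were high in Xist (789 and 928 CPM, against 0.269 to 0.635 CPM in the WT libraries) and low in Ddx3y (2.49 and 1.05 CPM, against 142 to 155 CPM), so het and WT mice also differed in sex-linked transcripts and genotype and sex cannot be told apart.

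The 6 genes covered a wide range of abundance. Per kilobase of transcript, Arc was the most abundant in every group, at 70.0 ± 32.9 CPM per kilobase in het P30, 85.9 ± 7.90 in WT P100 and 455.9 ± 83.2 in WT P30 libraries (SD, n = 2 each). In WT P30 libraries Pcsk1 followed at 25.8 ± 2.71 CPM per kilobase, then Nptx2 at 17.8 ± 3.92, Npas4 at 14.6 ± 2.78, Ptgs2 at 7.78 ± 2.38 and Inhba at 1.10 ± 0.0798 (SD, n = 2 each). Nptx2 and Npas4 were neighbours in this order that did not differ beyond their spread. The order of the group means was the same in het P30 and WT P100 libraries, where Npas4 stood at 5.57 ± 0.968 and 5.91 ± 3.81 CPM per kilobase and Ptgs2 at 3.18 ± 0.899 and 3.65 ± 0.175 (SD, n = 2 each).

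**Figure D1:**
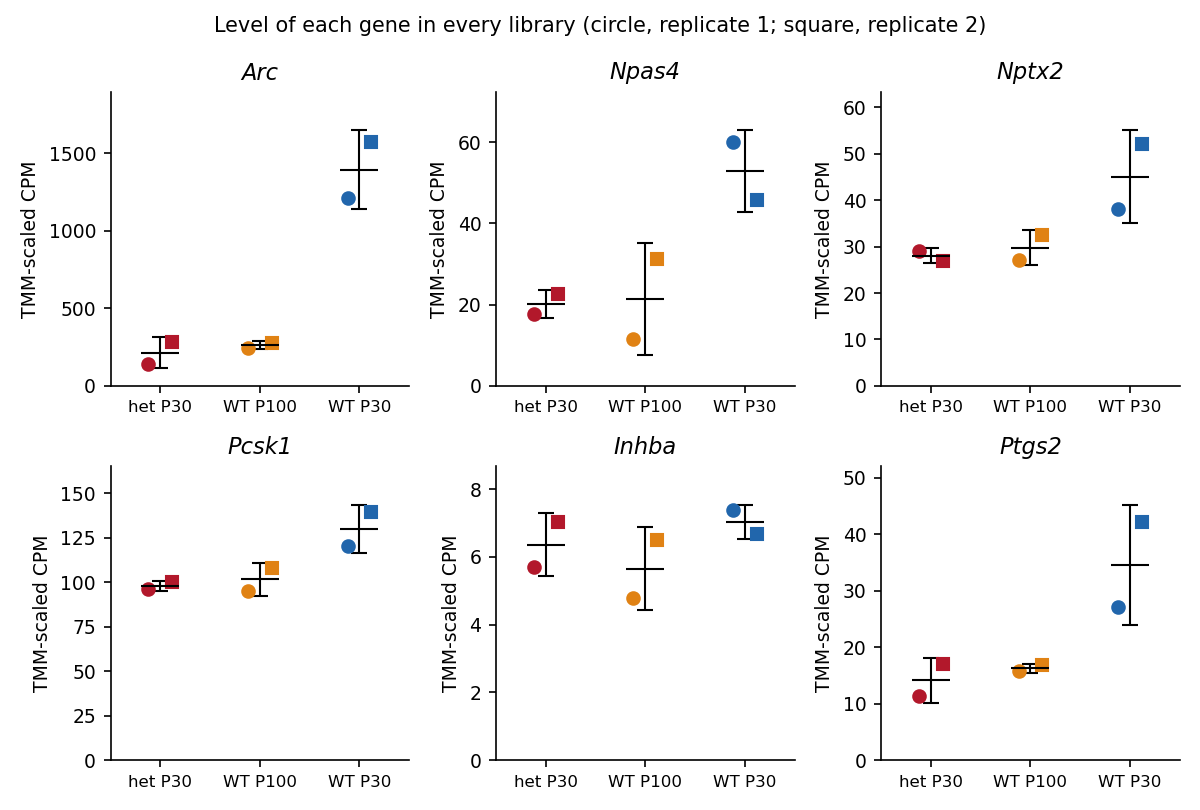
Level of each gene in every library, in CPM scaled by the trimmed mean of M values, for het P30, WT P100 and WT P30, with the mean as a line and the SD as a bar (n = 2). Both WT P30 libraries lie above all 4 other libraries for Arc, Npas4, Nptx2, Pcsk1 and Ptgs2, while the Inhba values of het P30 and WT P30 overlap.

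Arc encodes a postsynaptic protein that promotes the removal of AMPA receptors from synapses. Its gene lies on the minus strand of chr15:74669083-74672570 (mm10), and it was counted as ENSMUST00000023268, which had the same counts as the gene's second transcript. Arc had 143 and 285 CPM in het P30 libraries, 245 and 279 CPM in WT P100 libraries, and 1213 and 1573 CPM in WT P30 libraries, where CPM are scaled by the trimmed mean of M values (TMM). Both WT P30 libraries were far above the other 4, and the het P30 values lay on either side of the WT P100 values. Arc fell 6.51-fold in het P30 against WT P30 (log2 fold change -2.70, SE 0.22, edgeR adjusted p = 1.421e-05). It fell 5.31-fold in WT P100 against WT P30 (log2 fold change -2.41, SE 0.22, edgeR adjusted p = 2.886e-05). Both calls held in all 15 alternative fits. These are bulk libraries, in which fewer cells of a type and less RNA per cell cannot be told apart.

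Npas4 encodes a neuronal transcription factor that pairs with Arnt proteins and shapes the inhibitory synapses a neuron receives. It lies on the minus strand of chr19:4984355-4990316 (mm10). Npas4 had 17.7 and 22.7 CPM in het P30 libraries, 11.7 and 31.1 CPM in WT P100 libraries, and 60.0 and 45.7 CPM in WT P30 libraries. The groups did not overlap with WT P30, but the WT P100 duplicates differed 2.67-fold, the widest spread between duplicates in the set. It fell 2.61-fold in het P30 against WT P30 (log2 fold change -1.38, SE 0.28, edgeR adjusted p = 0.01583) and 2.51-fold in WT P100 against WT P30 (log2 fold change -1.32, SE 0.29, edgeR adjusted p = 0.01375). DESeq2 did not call either change, with adjusted p = 0.208 in het P30 and 0.201 in WT P100. The het call was also lost without het P30 replicate 1 (edgeR adjusted p = 0.09) or WT P30 replicate 1 (0.0761), and the WT P100 call without WT P30 replicate 1 (0.0724), while the WT P100 log2 fold change was -0.76 without WT P100 replicate 1 and -2.17 without WT P100 replicate 2.

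Ptgs2 encodes cyclooxygenase-2, the enzyme that makes the precursor of the prostaglandins and is found in the dendrites of excitatory cortical neurons. It lies on the plus strand of chr1:150100031-150108227 (mm10). Ptgs2 had 11.3 and 17.0 CPM in het P30 libraries, 15.7 and 16.8 CPM in WT P100 libraries, and 27.1 and 42.1 CPM in WT P30 libraries. The groups did not overlap with WT P30, whose own duplicates were the most unequal of this gene. Ptgs2 fell 2.46-fold in het P30 against WT P30 (log2 fold change -1.30, SE 0.20, edgeR adjusted p = 0.002632) and 2.15-fold in WT P100 against WT P30 (log2 fold change -1.10, SE 0.20, edgeR adjusted p = 0.004828). The het call held in all 15 alternative fits. The WT P100 call was lost without WT P100 replicate 1 (edgeR adjusted p = 0.0629), WT P100 replicate 2 (0.0518) or WT P30 replicate 2 (0.0542).

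Nptx2 encodes neuronal pentraxin 2, a secreted protein that clusters AMPA receptors on parvalbumin interneurons. It lies on the plus strand of chr5:144545902-144557478 (mm10). Nptx2 had 29.2 and 27.0 CPM in het P30 libraries, 27.1 and 32.5 CPM in WT P100 libraries, and 38.1 and 52.1 CPM in WT P30 libraries. All 4 het P30 and WT P100 values were below the lower WT P30 value. Nptx2 fell 1.62-fold in het P30 against WT P30 (log2 fold change -0.69, SE 0.14, edgeR adjusted p = 0.0151) and 1.53-fold in WT P100 against WT P30 (log2 fold change -0.61, SE 0.14, edgeR adjusted p = 0.01858). The het call was lost without het P30 replicate 2 (edgeR adjusted p = 0.0726) or WT P30 replicate 2 (0.156), and the WT P100 call without WT P100 replicate 1 (0.160), WT P100 replicate 2 (0.0521) or WT P30 replicate 2 (0.162).

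Pcsk1 encodes a proprotein convertase that cuts prohormones and neuropeptide precursors inside dense core granules. It lies on the plus strand of chr13:75089826-75134861 (mm10). Pcsk1 had 96.1 and 100.1 CPM in het P30 libraries, 95.2 and 108 CPM in WT P100 libraries, and 120.3 and 139.7 CPM in WT P30 libraries. Its changes were the smallest of those called, with no overlap between WT P30 and the other groups. Pcsk1 fell 1.33-fold in het P30 against WT P30 (log2 fold change -0.41, SE 0.09, edgeR adjusted p = 0.02248) and 1.28-fold in WT P100 against WT P30 (log2 fold change -0.36, SE 0.09, edgeR adjusted p = 0.02673). The het call was lost without het P30 replicate 1 (edgeR adjusted p = 0.181), het P30 replicate 2 (0.0677) or WT P30 replicate 2 (0.217), and the WT P100 call without WT P100 replicate 1 (0.210), WT P100 replicate 2 (0.0609) or WT P30 replicate 2 (0.204).

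Inhba encodes the inhibin beta A chain, whose dimer is activin A, a secreted ligand of the TGF-beta family. It lies on the plus strand of chr13:16011851-16031621 (mm10). Inhba had 5.70 and 7.03 CPM in het P30 libraries, 4.78 and 6.51 CPM in WT P100 libraries, and 7.39 and 6.67 CPM in WT P30 libraries. The het P30 and WT P30 values overlapped, and the higher WT P100 value lay just under the lower WT P30 value. Inhba was not called in het P30 against WT P30 (log2 fold change -0.14, 95% confidence interval -0.57 to 0.29, edgeR adjusted p = 0.7758). Nor was it called in WT P100 against WT P30 (log2 fold change -0.32, 95% confidence interval -0.78 to 0.13, edgeR adjusted p = 0.3902). These intervals still hold decreases as large as those of Pcsk1, so Inhba is not shown to be unchanged.

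**Figure D2:**
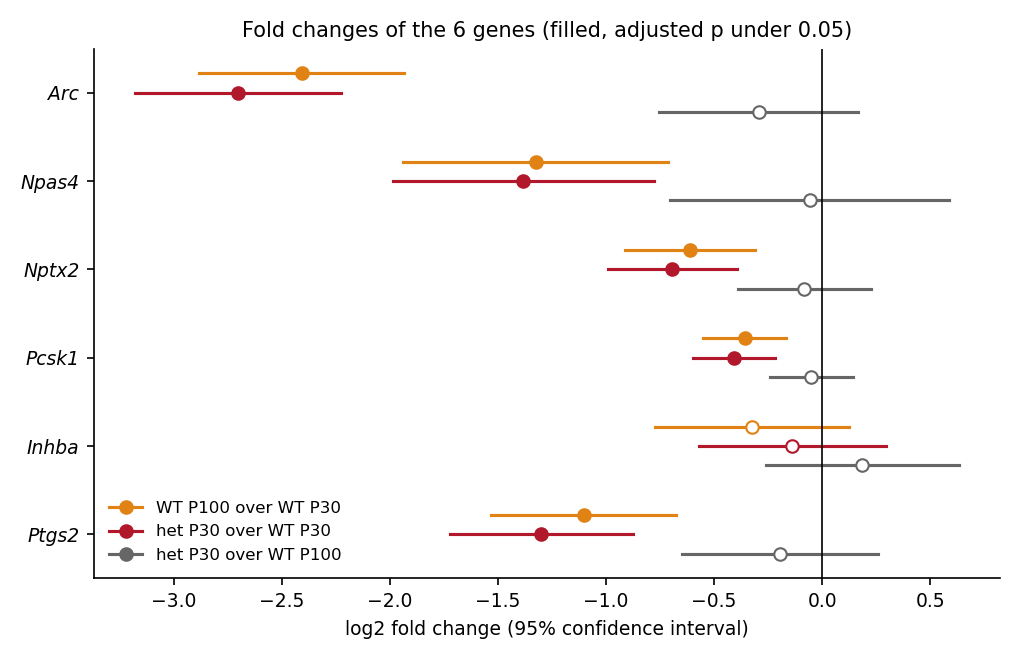
Log2 fold changes of the 6 genes with 95% confidence intervals for WT P100 over WT P30, het P30 over WT P30 and het P30 over WT P100, with filled points where the edgeR adjusted p is under 0.05. Arc lies at -2.41 and -2.70 against WT P30, the Inhba intervals span 0, and all 6 intervals of het P30 over WT P100 span 0.

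In het P30 against WT P30, 5 of the 6 genes were called lower and none higher, beside 2.32% of all 15841 genes tested called lower and 0.903% called higher. In WT P100 against WT P30, 5 of the 6 were likewise called lower and none higher, beside 4.54% of all genes called lower and 3% called higher. The median log2 fold change of the 6 was -0.996 in het P30 and -0.858 in WT P100, beside medians near 0 over all genes (0.003 and 0.001). DESeq2 called 4 of the 6 in each comparison and limma-voom 5. With counts summed over all transcripts of a gene, the calls of Npas4, Nptx2 and Pcsk1 were lost in both comparisons, with edgeR adjusted p between 0.0631 and 0.0793 in het P30 and between 0.0566 and 0.065 in WT P100. Npas4 and Nptx2 had 1 transcript each, so their own counts were not altered by summing. Their log2 fold changes in WT P100 were -1.32 and -0.61 in this fit. The values of 5 of the 6 did not overlap in het P30 against WT P30, where 24.4% of all genes were without overlap in the lower direction. In WT P100 against WT P30 all 6 were without overlap, beside 25.7% of all genes. Both comparisons use the same WT P30 libraries.

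The authors' deposited table, which holds single transcripts, gives the same sign for the counted transcripts of all 6 genes in both comparisons. In the authors' deposited table for het P30 against WT P30, the adjusted p was 3.845e-11 for Arc, 0.02618 for Ptgs2 and 0.0467 for Npas4, and 0.1478 for Nptx2, 0.6819 for Pcsk1 and 1 for Inhba. In the authors' deposited table for WT P100 against WT P30 it was 3.364e-10 for Arc and between 0.1958 and 1 for the counted transcripts of the other 5 genes, and 0.06398 for a second Pcsk1 transcript.

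Activity reaches such genes through the cAMP response element (CRE, TGACGTCA), its half-site (TGACG), serum response elements and AP-1 sites, so the start regions were read for these letters. The RefSeq promoter table (GRCm38.p6) held 250 bases before and 50 after the start of Npas4, Pcsk1, Inhba and Ptgs2, so 4 of the 6 genes matched, and Arc and Nptx2 are named only. The stretches with matches are shown 5′ to 3′ on the gene's strand, together with a stretch of the Inhba promoter, the gene without a call. Letters that match a CRE, a half-site, an AP-1 site or an E-box (CACGTG) are in capitals. The Inhba stretch holds a TATA box (TATAAA), which is left in lower case.
Npas4, chr19:4990130-4990155 (GRCm38.p6, minus strand): ttcgaCGTCAcgggaTGACGtcggaa
Ptgs2, chr1:150100036-150100065 (GRCm38.p6, plus strand): caccactaCGTCACGTGgagtccgctttac
Pcsk1, chr13:75089757-75089824 (GRCm38.p6, plus strand): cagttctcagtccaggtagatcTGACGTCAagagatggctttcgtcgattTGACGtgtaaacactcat
Inhba, chr13:16011701-16011790 (GRCm38.p6, plus strand): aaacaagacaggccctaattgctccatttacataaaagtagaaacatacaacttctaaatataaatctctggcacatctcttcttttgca

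Pcsk1, a gene with a small change, held a full CRE 78 to 71 bases before its RefSeq start and a separate half-site at 50 to 46 bases before it. The RefSeq start lies inside the gene span given above, from whose start the CRE is 47 to 40 bases and the half-site 19 to 15 bases upstream. A full CRE was found in the 250 bases before the start of 1.55% of 32851 RefSeq promoters, and a half-site in 17.8%, counting both strands and the half-sites inside a full CRE. Npas4 held a pair of half-sites on opposite strands, pointing away from each other, at 179 to 175 and 169 to 165 bases before the RefSeq start. Counted from the start of the gene span given above, which lies farther upstream, these half-sites are inside the gene, at bases 167 to 171 and 177 to 181. Ptgs2 held a half-site 14 to 18 bases after its start that overlaps an E-box (CACGTG) at 17 to 22, and the bases after the start were added after the sequences had been seen; over that whole window a half-site was found in 20.8% and an E-box in 7.15% of promoters. Inhba held none of the CRE, half-site, AP-1 (TGANTCA), E-box or serum response element matches in its window and held a TATA box (TATAAA) 91 to 86 bases before the start, found in 12.4% of promoters. A match is a run of letters and not a shown binding site, and elements farther away were not read.

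Het P30 and WT P100 were also compared directly. None of the 6 genes was called by edgeR, DESeq2 or limma-voom, and 0 of 6 had an unadjusted edgeR p under 0.05, beside 2.66% of all genes called lower and 2.44% called higher. The values of all 6 overlapped between these groups, while 50.5% of all genes were without overlap in either direction. The log2 fold change of Arc in het P30 against WT P100 was -0.29 (95% confidence interval -0.75 to 0.17, edgeR adjusted p = 0.5058). That of Pcsk1 was -0.05 (-0.24 to 0.14, edgeR adjusted p = 0.8216) and that of Nptx2 -0.08 (-0.39 to 0.23, edgeR adjusted p = 0.818). The intervals of Ptgs2 (-0.65 to 0.26), Inhba (-0.26 to 0.63) and Npas4 (-0.70 to 0.59), like that of Arc, were wider than those of Pcsk1 and Nptx2. Differences of up to about the size of the Nptx2 change against WT P30 remain within these wider intervals. Arc was called lower in het P30 without het P30 replicate 2 (log2 fold change -0.88, edgeR adjusted p = 0.001255) and when no filter on low counts was used (edgeR adjusted p = 0.000852). The direction of the Npas4 difference turned between -0.62 and 0.79 as single libraries were left out.

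The early genes Arc and Npas4 were set against the late genes Nptx2, Pcsk1, Inhba and Ptgs2 as the difference between their mean log2 CPM in each library. This difference was 1.28 and 1.75 in het P30, 1.34 and 1.90 in WT P100, and 3.11 and 2.82 in WT P30 libraries. Both WT P30 libraries lay above the other 4. Relative to the WT P30 mean of 2.97 ± 0.21 (SD, n = 2), the early-minus-late difference was lower by 1.46 log2 units in het P30 (mean 1.51 ± 0.33) and by 1.35 in WT P100 (mean 1.62 ± 0.39). Without Ptgs2 among the late genes the values were 0.99 and 1.58 in het P30, 1.20 and 1.71 in WT P100, and 3.05 and 2.87 in WT P30 libraries. Among single genes, the 95% confidence intervals of Arc against WT P30 lay wholly below those of all 4 late genes in both comparisons. Those of Npas4 overlapped the intervals of Ptgs2 and Nptx2 in both comparisons, and that of Inhba in WT P100 against WT P30. The difference in response between genes was not tested.

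**Figure D3:**
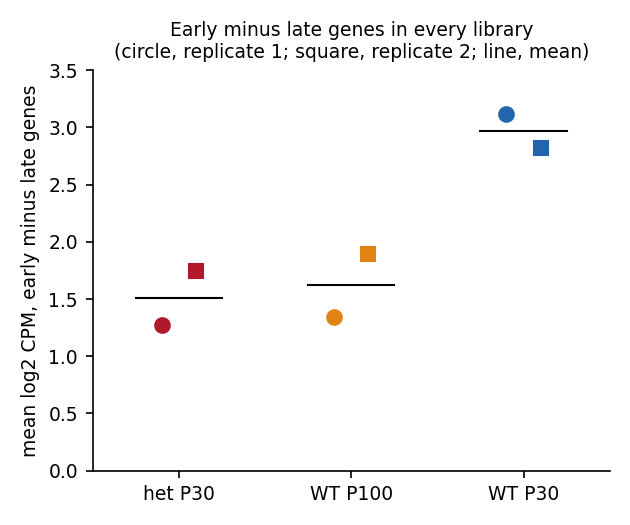
Mean log2 CPM of Arc and Npas4 minus that of Nptx2, Pcsk1, Inhba and Ptgs2 in every library of het P30, WT P100 and WT P30, with the group mean as a line. The WT P30 libraries stand at 3.11 and 2.82, and the other 4 libraries between 1.28 and 1.90.

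The genes whose products work with each of the 6 were read from lists of partners. Of 14 Arc partners and AMPA receptor genes, edgeR called none in het P30 against WT P30, where 1 had an unadjusted p under 0.05 and neither DESeq2 nor limma-voom called any. In WT P100 against WT P30 2 of the 14 were called lower, Sh3gl3 (endophilin 3, an endocytic protein that binds Arc; log2 fold change -0.52) and Dlg4 (the postsynaptic scaffold PSD-95; -0.30). Both calls were lost without either WT P100 library and without 1 WT P30 library, replicate 1 for Sh3gl3 and replicate 2 for Dlg4. The Sh3gl3 call was also lost with counts summed over all transcripts of a gene. The list's median log2 fold change was -0.04 in het P30 and -0.09 in WT P100. Over all genes 2.32% and 4.54% were called lower in these comparisons with WT P30.

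Among 13 dimer partners and reported targets of Npas4, which include Nptx2, 8 were called lower in het P30 and 5 in WT P100 against WT P30, and none higher. Over all genes 2.32% were called lower in het P30 and 4.54% in WT P100. The median log2 fold change of the list was -0.43 in het P30 and -0.25 in WT P100. Nr4a1, an orphan nuclear receptor gene that is itself an immediate early gene, averaged 60.8 ± 33.8 CPM in het P30, 51.8 ± 4.49 in WT P100 and 275.5 ± 11.1 in WT P30 libraries (SD, n = 2 each). Sik1, a kinase that restrains CREB coactivators, fell 3.08-fold in het P30 (edgeR adjusted p = 0.001057) and 3.59-fold in WT P100 (0.0003324). Csrnp1 fell 2.59-fold in both (edgeR adjusted p = 0.001807 and 0.001395). Bdnf, the neurotrophin gene reported as an Npas4 target, was not called, at log2 fold changes of -0.59 in het P30 and -0.46 in WT P100.

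The pentraxin list, which also holds secreted C1q-family proteins, moved in both directions. Nptx1, the constitutive neuronal pentraxin, rose 1.33-fold in WT P100 against WT P30 (edgeR adjusted p = 0.004385), a call lost without WT P100 replicate 2 (0.0575), while Nptx2 fell. In het P30 Nptx1 averaged 170.1 ± 12.01 CPM, against 270.0 ± 8.59 CPM in WT P100 (SD, n = 2 each), and was 1.59-fold lower (edgeR adjusted p = 0.0001896). Cbln4, a secreted synapse organiser of the C1q family, fell 2.47-fold in het P30 against WT P30 (edgeR adjusted p = 0.0006084) and averaged 37.0 ± 3.86 CPM in WT P100 and 38.7 ± 2.46 CPM in WT P30 libraries. Of the 7 genes of this list, 2 were called lower and 2 higher in het P30 against WT P30. In WT P100 against WT P30, 2 were called lower and 1 higher. The shares over all genes were 2.32% lower and 0.903% higher in het P30, and 4.54% and 3% in WT P100. Whether Nptx2 and its relatives differ in response was not tested.

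Pcsk1 was 1 of 24 genes of prohormone processing and dense core granules. Of these, 2 were called lower in het P30 and 5 in WT P100 against WT P30, with none higher. Over all genes 2.32% and 4.54% were called lower in these comparisons. Scg5, whose product 7B2 is the chaperone of a related convertase, fell 1.43-fold in WT P100 (edgeR adjusted p = 0.0007895). In het P30 it fell 1.27-fold (edgeR adjusted p = 0.01547). This call was lost without either het P30 library, without WT P30 replicate 2, and with counts summed over all transcripts of a gene. Cpe, the carboxypeptidase that trims peptides after the convertases cut, averaged 1583 ± 16.3 CPM in het P30, 1269 ± 84.2 in WT P100 and 1683 ± 99.2 in WT P30 libraries (SD, n = 2 each), and fell 1.33-fold in WT P100 against WT P30 (edgeR adjusted p = 0.003673). In the direct comparison of het P30 with WT P100, 6 of the 24 were called higher in het P30 and none lower. The shares over all genes were 2.44% higher and 2.66% lower. Pcsk1 was not among the 6. The calls of Cadps2, Cpe, Cort and Tac1 were each lost in some of the fits that left out 1 library. Those of Cort and Tac1 were also lost with counts summed over all transcripts of a gene, and that of Cort with DESeq2. The remaining calls were near the threshold, with edgeR adjusted p = 0.0404 for Scg3 and 0.0472 for Chgb.

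Of 18 tested genes of the activin system, Inhba among them, 1 was called lower and none higher in het P30 against WT P30, beside 2.32% and 0.903% of all genes, and 1 lower and 3 higher in WT P100 against WT P30, beside 4.54% and 3%. Smad7, an inhibitor of TGF-beta family signalling that this signalling induces, fell 1.60-fold in het P30 (edgeR adjusted p = 0.003158) and 1.56-fold in WT P100 (0.003283). Acvr1c, a type I receptor of the family, averaged 53.6 ± 0.0799 CPM in het P30, 110.1 ± 13.0 in WT P100 and 68.5 ± 8.36 in WT P30 libraries (SD, n = 2 each). It rose 1.60-fold in WT P100 against WT P30 (edgeR adjusted p = 0.001398) and was 2.05-fold lower in het P30 than in WT P100 (8.239e-05). Smad3, which carries the activin signal to the nucleus, rose 1.75-fold in WT P100 (edgeR adjusted p = 0.001398).

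Of 16 tested genes of prostaglandin synthesis and reception, Ptgs2 was the only gene that edgeR called in WT P100 against WT P30. In het P30 against WT P30 Ptgds, the prostaglandin D2 synthase gene, was also called lower, at 18.2 ± 1.26 CPM in het P30, 43.6 ± 3.76 in WT P100 and 35.1 ± 3.93 in WT P30 libraries (SD, n = 2 each). Ptgds fell 1.92-fold in het P30 against WT P30 (edgeR adjusted p = 0.0006464) and was 2.39-fold lower in het P30 than in WT P100 (5.208e-05). Oligodendrocytes, meninges and choroid plexus also express Ptgds. Like Ptgds, the myelin sum was lower in het P30 (2255 to 2317 CPM) than in WT P30 libraries (3022 to 3229 CPM). The myelin sum was lowest in WT P100 (1538 to 1804 CPM), where Ptgds was highest. The summed CPM of 6 meningeal genes was 13.8 to 16.9 in het P30, 8.45 to 10.03 in WT P100 and 13.8 to 14.4 in WT P30 libraries, and that of 8 choroid plexus genes was 1.95 and 620.4 in het P30 and 1.18 to 2.04 in the WT libraries. The part of these cell types in the Ptgds change was not tested. The list's median log2 fold change was -0.06 in het P30 and -0.17 in WT P100. Of all genes tested, 2.32% were called lower in het P30 and 4.54% in WT P100 against WT P30.

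**Figure D4:**
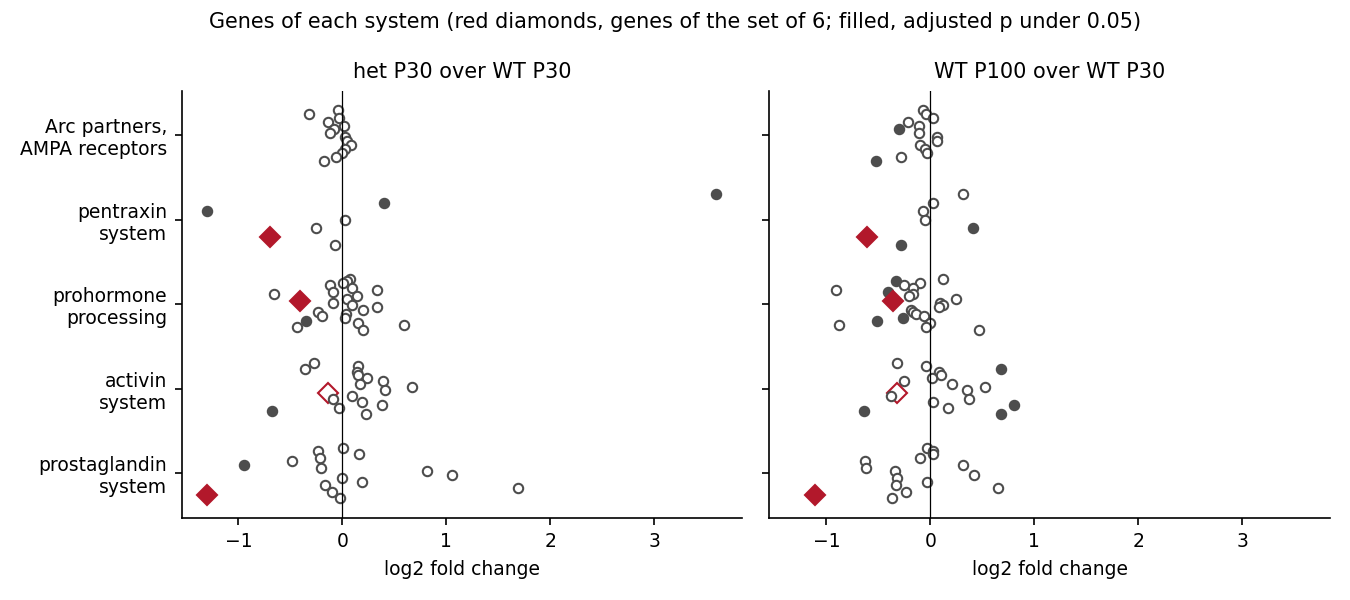
Log2 fold changes of the tested genes in 5 lists of partners of Arc, Nptx2, Pcsk1, Inhba and Ptgs2, for het P30 over WT P30 and WT P100 over WT P30, with genes of the set of 6 as red diamonds and filled symbols where the edgeR adjusted p is under 0.05. Ptgs2 lies at -1.30 and -1.10 while the median of its list is -0.06 and -0.17.

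The 6 genes were also read beside wider lists of activity-induced genes. Of all genes tested, 2.32% were called lower in het P30 and 4.54% in WT P100 against WT P30. In het P30 against WT P100, 2.44% of all genes were called higher. All 15 early transcription factor genes, Npas4 among them, were called lower by edgeR in het P30 against WT P30. In WT P100 against WT P30, edgeR called 14 of the 15 lower. The median log2 fold changes were -1.58 and -1.92. DESeq2 called 12 of the 15 in het P30 and 13 in WT P100, with Npas4 in neither. The het P30 call of Atf3 rests on few counts, 5 and 3 in het P30 and 15 and 22 in WT P30 libraries. Of 17 late secreted and membrane effectors, 5 were called lower in het P30, 3 of them Ptgs2, Nptx2 and Pcsk1, and 7 in WT P100, where the same 3 were among them. The medians of the late list were -0.29 and -0.32. Of 12 synaptic effectors that include Arc, 7 were called lower in het P30 and 6 in WT P100. Homer1, a postsynaptic scaffold gene of that list, averaged 533.8 ± 2.19 CPM in het P30, 504.5 ± 85.6 in WT P100 and 1019 ± 146 in WT P30 libraries (SD, n = 2 each), a fall of 1.91-fold and 2.02-fold (edgeR adjusted p = 0.0003092 and 9.501e-05). In the direct comparison, in which Arc and Npas4 were not called, the zinc finger gene Egr2 stood at 21.6 ± 2.82 CPM in het P30 and 5.47 ± 1.38 in WT P100 (SD, n = 2 each), 3.91-fold higher in het P30 (edgeR adjusted p = 5.111e-05), and held in all 15 alternative fits. Of the 15 early factors, edgeR called 5 higher in het P30 than in WT P100 and DESeq2 called 3; among the 5, the Egr4 call was lost without het P30 replicate 2 or WT P100 replicate 2 (edgeR adjusted p up to 0.0984), the Egr1 call without het P30 replicate 2 or either WT P100 library (up to 0.132), and the Fos call without het P30 replicate 2 or WT P100 replicate 1 (up to 0.291). The Egr1 and Fos calls were also lost with DESeq2, and the Fos call with counts summed over all transcripts of a gene. The members of these lists were chosen with earlier results of these libraries known, so their counts are a description.

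For each gene, the 3 genes with the most similar pattern over the 6 libraries were found by the root mean square difference between centred log2 CPM profiles. For Arc these were Nr4a1 (0.249), Dusp1 (0.304) and Junb (0.312), all immediate early genes. For Npas4 they were Btg2 (0.261), Kcne4 (0.288) and Plekhf1 (0.333). For Ptgs2 they were Klf2 (0.078), Rnf39 (0.145) and Arid3b (0.156). The genes with smaller changes had closer matches, namely Nefm (0.0607), a neurofilament gene, for Nptx2, Tmem198 (0.0436) and Rph3a (0.0453) for Pcsk1, and Cpne2 (0.0513) for Inhba. Within the set, Nptx2 and Pcsk1 were closest to each other (0.146) and Arc and Inhba farthest apart (1.16). The profiles were centred but not scaled, so these differences also depend on the size of each gene's changes. Genes that change little lie close to each other whatever their pattern.

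**Figure D5:**
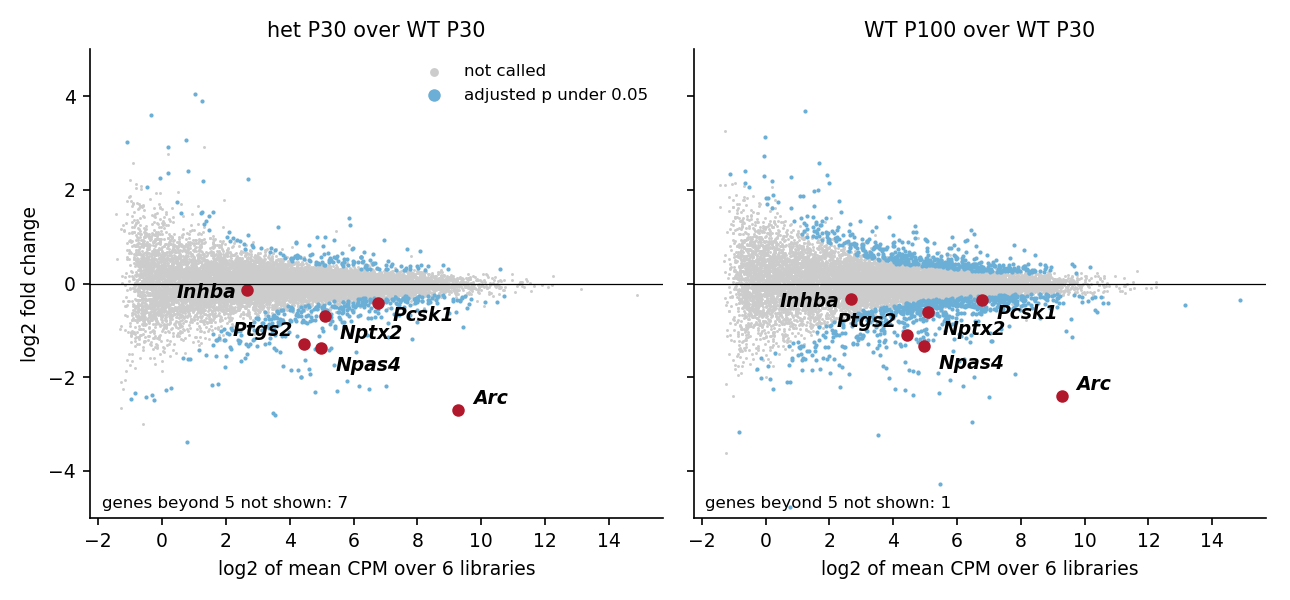
Log2 fold change of all 15841 genes tested against the log2 of their mean CPM over 6 libraries, for het P30 over WT P30 and WT P100 over WT P30, with genes called by edgeR in blue and the 6 genes in red. Arc lies at -2.70 and -2.41, and genes beyond 5 log2 units (7 and 1) are not drawn.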

How the data were processed

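Counts per transcript of 95533 mouse transcripts were deposited by the authors for each library. Bowtie, HTSeq, DESeq 1.8.3 and mm10 are named in the submitters' processing notes; neither a strand setting nor the annotation release is given in the sources used here. Comparison tables that the authors deposited hold normalized signal means, a ratio (fold change), its log2 and p-values per transcript. Transcripts without a gene held 13.96% of counts and were left out. For each gene the transcript with the highest total count was kept, since transcripts of a gene share reads. edgeR 4.0.16 (R 4.3.3) fitted a quasi-likelihood model of 3 groups over 6 libraries with TMM scaling and filterByExpr (minimum count 10, minimum total 15); 15841 genes, all 6 members among them, were tested with Benjamini-Hochberg adjustment at 0.05 and 3 residual degrees of freedom. On simulated data with known changes the fit made a larger share of false calls than the 0.05 threshold allows, in all 3 comparisons. Log2 CPM used a prior count of 2. Alternatives were limma-voom 3.58.1, DESeq2 1.42.0, other scalings, filters and gene levels, a replicate factor and leaving out each library. Exon positions came from GENCODE (GRCm38), in which no exon base of the 6 genes is shared with another gene. Named genes were the members, their 3 nearest patterns (mean CPM of 1 or more), and up to 4 called genes per partner list, those with the smallest p; Bdnf was added after its values were seen. The members and lists were chosen with earlier results of these data known.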

Additional observations from a re-analysis of the deposited data

How the results depend on the processing

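Arc was called lower in het P30 and in WT P100 against WT P30 under all 15 alternatives, and Ptgs2 in het P30. Counts summed over all transcripts of a gene left 2 of the 6 genes called lower in each of these comparisons, and leaving out 1 library left 3 to 5 in het P30 and 2 to 5 in WT P100. Against WT P100, het P30 had 1 of 6 called lower with no filter on low counts and 0 to 1 without single libraries. There, Npas4 turned to 0.12 with limma-voom, and without single libraries the log2 fold changes ran from -0.88 to 0.12 for Arc, -0.62 to 0.79 for Npas4, -0.21 to 0.05 for Nptx2, -0.139 to 0.042 for Pcsk1, -0.031 to 0.413 for Inhba and -0.518 to 0.066 for Ptgs2. The early-minus-late difference there ran from -0.385 to 0.168, and Inhba in het P30 against WT P30 from -0.300 to 0.004. A library left alone in its group was assumed to vary like the other groups.

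Over all genes, het P30 against WT P30 had 143 higher and 368 lower calls, 392 and 728 with no filter, 71 and 192 with summed counts, 94 higher with DESeq2, and 52 to 116 higher and 129 to 376 lower without single libraries. WT P100 against WT P30 had 475 and 719, 764 and 1096 with no filter, 295 higher with DESeq2, 297 higher with summed counts, and 118 to 417 and 233 to 661 without single libraries. Het P30 against WT P100 had 386 and 422, 758 and 715 with no filter, 246 and 256 with summed counts, and 120 to 469 and 135 to 473 without single libraries. The cause was not tested.

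The replicate numbers did not pair the samples (correlations of deviations 0.1, -0.00409 and -0.000315). A replicate block changed no call of the 6 genes and gave 5, 5 and 0 called lower; over all genes it gave 192 higher and 450 lower in het P30 against WT P30, and 526 and 794 in WT P100 against WT P30. DESeq2 gave Inhba no adjusted p in het P30 against WT P30.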

Other observations

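Secreted C1q-family genes differed between the groups beside Nptx2. C1ql2 had 1.27 and 2.73 CPM in het P30, 0.22 and 0.18 CPM in WT P100, and 0.09 and 0.21 CPM in WT P30 libraries, which are few counts; its edgeR call in het P30 against WT P30 (log2 fold change 3.60, adjusted p = 0.00716) was lost without het P30 replicate 2 or WT P30 replicate 2. Cbln4 had 12.2 and 19.2 CPM in het P30, 39.8 and 34.3 CPM in WT P100, and 37.0 and 40.5 CPM in WT P30 libraries, so that both het libraries lay below all 4 WT libraries.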
